A study of Mus musculus with 4 samples.

Results

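The glucocorticoid receptor gene Nr3c1 and 5 genes that the receptor is known to induce, Tsc22d3, Fkbp5, Klf9, Sgk1 and Ddit4, were examined in follicular helper T (Tfh) cells of wild-type and Apoe-deficient mice. Members were chosen by gene symbol, and all 6 were found among 23997 genes listed and among 11187 tested. The 2 WT and 2 Apoe-/- libraries came from mice of strain C57BL/6 aged 13 weeks, with lymph nodes and spleens as the tissue. Apoe encodes apolipoprotein E, and mice that lack it accumulate plasma lipoproteins and develop atherosclerosis. The labels state no treatment, no sex, no way of sorting the cells, and not whether a library is 1 mouse or a pool, so the p-values reflect library-to-library spread, part or all of which may be technical.

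Glucocorticoids are adrenal steroid hormones that cross the cell membrane and bind a receptor held in the cytosol by the Hsp90 chaperone machinery. The bound receptor moves to the nucleus, where it binds palindromic DNA elements and activates some genes while it restrains others, many of them inflammatory. In T cells the hormone is known for dampening receptor signaling and cytokine production and for altering trafficking and survival. Several of its targets (Fkbp5, Tsc22d3, Ddit4) act as brakes on the hormone itself, on inflammatory transcription or on growth signaling. All of these targets also answer to other signals.

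Values are FPKM (fragment numbers divided by transcript length and by the size of the library), so levels are per transcript length and can be compared between genes. Differences are Apoe-/- minus WT on the log2(FPKM + 1) scale, tested with limma, with p-values adjusted over the tested genes by the Benjamini-Hochberg method, and a gene was called at an adjusted p under 0.05. FPKM totals lay between 522371 and 551289 in the 4 libraries, and the read depth is unknown. Apoe was at 145 and 128 FPKM in WT and at 5.09 and 5.21 FPKM in Apoe-/- libraries. The 8 T and Tfh markers were present in every library, with summed levels of 1644 and 1655 FPKM in WT and 1671 and 1654 FPKM in Apoe-/-. None of the 8 was called by limma (2 higher and 1 lower at an unadjusted p under 0.05), and the sums join genes of opposite sign: Pdcd1 was at 271 and 191 FPKM and Cxcr5 at 169 and 213 FPKM (group means, adjusted p = 0.0887 and 0.153). The X-linked Xist was at 108 to 146 FPKM in all 4 libraries, and 4 Y-linked genes were listed at 0 in each.

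Of the 6 genes, Klf9 fell in Apoe-/- cells, and the other 5 did not pass the test. Called genes made up 1.83% of all tested genes, 0.885% lower and 0.948% higher. At an unadjusted p under 0.05, 3 of the 6 were lower (Nr3c1, Klf9 and Sgk1) and 1 was higher (Tsc22d3), against 925 lower and 1296 higher among all tested genes. Both Apoe-/- libraries lay below both WT libraries for Nr3c1, Fkbp5, Klf9 and Sgk1, and above them for Tsc22d3. Such separation was common: it held for 50.4% of tested genes, 22.9% lower and 27.5% higher. The 6 genes did not all lie on 1 side of WT, and their median difference was -0.21, against 0.00 over all tested genes.

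**Figure D1:**
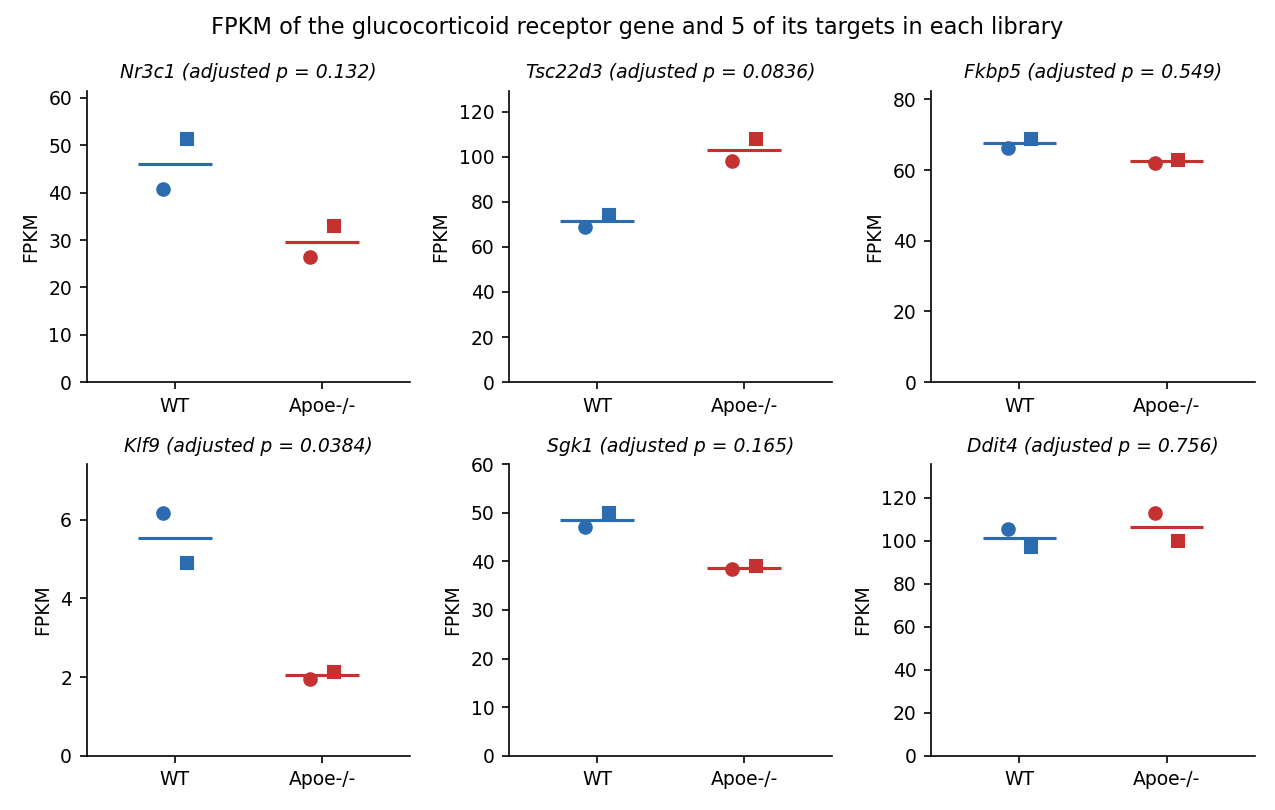
FPKM of the 6 genes by library (blue, WT; red, Apoe-/-), with circles for replicate 1, squares for replicate 2 and lines for group means; each axis starts at 0. The groups are apart for every gene but Ddit4, and Klf9 shows the widest relative gap, from a mean of 5.54 to 2.05 FPKM.

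Nr3c1 encodes the receptor, whose amount helps set how strongly a cell responds to the hormone. It was at 40.8 and 51.3 FPKM in the WT libraries and at 26.3 and 32.9 FPKM in the Apoe-/- libraries. Every Apoe-/- value was below every WT value, and replicate 1 was the lower library in each genotype. Means were 46.1 ± 7.41 and 29.6 ± 4.64 FPKM (SD, n = 2 per group), 1.55-fold lower in Apoe-/- (log2 difference -0.62 ± 0.17 SE, 95% interval -1.03 to -0.21, limma adjusted p = 0.132). The difference was -0.61 between the libraries numbered 1 and -0.63 between those numbered 2. It passed without Apoe-/- replicate 2 (adjusted p = 0.0243) and was furthest from passing without WT replicate 2 (adjusted p = 0.490).

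Tsc22d3 encodes the glucocorticoid-induced leucine zipper protein GILZ, which binds NF-kB and AP-1 and restrains inflammatory transcription. It lies on chromosome X at 140539528 to 140600522 (GRCm38), on the minus strand. It was at 68.9 and 74.3 FPKM in WT and at 98.2 and 108 FPKM in Apoe-/- libraries. Thus the transcript stood 1.44-fold higher in Apoe-/- (71.6 ± 3.81 and 103 ± 6.79 FPKM, SD, n = 2 per group), with no overlap. The log2 difference was 0.52 ± 0.10 SE (95% interval 0.26 to 0.77) and did not pass (limma adjusted p = 0.0836). It was 0.51 within number 1 and 0.53 within number 2. Tsc22d3 and Nr3c1 thus lay on opposite sides of WT: there were 1.69 and 1.45 FPKM of Tsc22d3 for each FPKM of Nr3c1 in WT and 3.73 and 3.27 in Apoe-/- libraries, a ratio chosen after the values were seen and not tested.

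Sgk1 encodes a serine/threonine kinase related to Akt that regulates ion channels and FOXO factors and that in T cells is known to affect helper cell fate. It lies on chromosome 10 at 21882184 to 21999903, on the plus strand. It was at 47.1 and 50.03 FPKM in WT and at 38.5 and 38.9 FPKM in Apoe-/- libraries. The libraries of each genotype lay close together and the genotypes were apart, although the gap was small. Means were 48.5 ± 2.11 and 38.7 ± 0.317 FPKM (SD, n = 2 per group), 1.25-fold lower (log2 difference -0.32 ± 0.10 SE, 95% interval -0.56 to -0.07, limma adjusted p = 0.165). The difference was -0.28 within number 1 and -0.35 within number 2.

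The start regions of the targets were searched for the receptor's DNA element, and Sgk1 was the only one of them that held it in full. RefSeq windows (GRCm38.p6) reach from 250 bases before to 50 bases after each annotated start, and 5 of the 6 genes matched the table, Nr3c1 being the other. The letters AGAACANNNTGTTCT, which read the same on both strands, were in 3 of 32851 windows (0.00913%), and 1 of these belongs to Sgk1. The others belong to Acnat2, listed at 0 in all 4 libraries, and to Gm35041, not analysed here. The Sgk1 match is at chr10:21993701-21993715 and ends 175 bases before the start at 21993890, in 1 of 6 Sgk1 windows. The FPKM of Sgk1 is a value for the whole gene and does not separate these starts. The sequence before that start is shown with the match in capitals, together with the same stretch of Klf9, the gene that was called, and the part of a Tsc22d3 window that lies in no annotated exon.
Sgk1 (plus strand, chr10:21993640-21993889): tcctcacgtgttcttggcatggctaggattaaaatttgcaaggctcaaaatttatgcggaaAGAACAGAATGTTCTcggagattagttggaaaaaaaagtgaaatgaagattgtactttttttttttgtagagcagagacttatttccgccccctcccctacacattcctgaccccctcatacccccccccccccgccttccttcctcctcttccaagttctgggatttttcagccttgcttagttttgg
Klf9 (plus strand, chr19:23140976-23141225): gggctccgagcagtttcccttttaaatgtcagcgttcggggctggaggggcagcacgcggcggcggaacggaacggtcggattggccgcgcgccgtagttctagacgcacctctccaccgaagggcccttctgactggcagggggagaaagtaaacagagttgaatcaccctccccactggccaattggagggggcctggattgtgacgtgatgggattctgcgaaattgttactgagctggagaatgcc
Tsc22d3 (minus strand, chrX:140600660-140600772): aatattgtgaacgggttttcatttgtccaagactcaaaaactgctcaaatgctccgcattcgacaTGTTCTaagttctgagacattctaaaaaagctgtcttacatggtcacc
In the Sgk1 stretch the capitals mark only the full match, and another TGTTCT near its left end is in lower case. In the Tsc22d3 stretch the capitals mark TGTTCT, which is the reverse complement of AGAACA, the left arm of the element. One or other of these arms was in 19.0% of all windows, in 3 of the 6 Sgk1 windows and in 1 of 3 Tsc22d3 windows, and in none of the windows of Klf9, Fkbp5 and Ddit4. The looser letters GNACANNNTGTNC, which every full match also contains, were in 156 windows (0.475%), and Sgk1 was the only member with them. Of 25 tested genes with the looser letters none was called by limma, against 205 of all 11187 tested genes (1.83%). At that share, 25 genes are too few for the lack of calls to be informative. Of the 25, 8 had an unadjusted p under 0.05 (limma), against 1296 higher and 925 lower among the 11187. The median difference of the 25 was 0.01. These matches describe letters in short windows; elements farther from a start were not searched.

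Klf9 encodes a zinc-finger transcription factor of the Krüppel-like family that is induced by glucocorticoids in many tissues. It lies on chromosome 19 at 23141226 to 23168129, on the plus strand, and a microRNA gene, Mir1192, lies within it. Klf9 was at 6.18 and 4.91 FPKM in WT and at 1.96 and 2.14 FPKM in Apoe-/- libraries, the lowest level of the 6 genes in every library. Both Apoe-/- libraries were well below both WT libraries, and the WT libraries differed more from each other than the Apoe-/- ones. The mean fell 2.71-fold, from 5.54 ± 0.902 to 2.05 ± 0.125 FPKM (SD, n = 2 per group; log2 difference -1.10 ± 0.15 SE, 95% interval -1.47 to -0.72, limma adjusted p = 0.0384). It was -1.28 within number 1 and -0.91 within number 2. Klf9 did not pass without WT replicate 1 (adjusted p = 0.0774) or when all genes above 0 were tested (adjusted p = 0.0932), over a range of 0.00220 to 0.0932 in 11 alternatives.

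Fkbp5 encodes FKBP51, a co-chaperone that lowers the receptor's affinity for hormone and is among the most sensitive readouts of glucocorticoid exposure. It lies on chromosome 17 at 28398753 to 28486149, on the minus strand, and 4 other annotated genes overlap it, some on each strand. Strand does not separate the reads of the overlapping genes on the minus strand. Reads of those on the plus strand cannot be told apart if they were counted without strand. Fkbp5 was at 66.3 and 68.8 FPKM in WT and at 62.0 and 62.9 FPKM in Apoe-/- libraries. All 4 values lay within a narrow band, with the Apoe-/- pair just below the WT pair. Means were 67.5 ± 1.73 and 62.4 ± 0.641 FPKM (SD, n = 2 per group), 1.08-fold lower in Apoe-/-. The log2 difference was -0.11 ± 0.09 SE (limma adjusted p = 0.549), and its 95% interval, -0.34 to 0.12, held 0.

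Ddit4 encodes REDD1, a stress-induced protein that restrains the growth kinase mTORC1 through the TSC complex. It lies on chromosome 10 at 59949675 to 59951770, on the minus strand. Ddit4 was at 106 and 97.0 FPKM in WT and at 113 and 99.99 FPKM in Apoe-/- libraries, and these ranges overlapped. Means were 101 ± 6.08 and 107 ± 9.25 FPKM (SD, n = 2 per group). The log2 difference was 0.07 ± 0.11 SE (95% interval -0.20 to 0.34, limma adjusted p = 0.756), and its sign turned without Apoe-/- replicate 1 (-0.02).

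**Figure D2:**
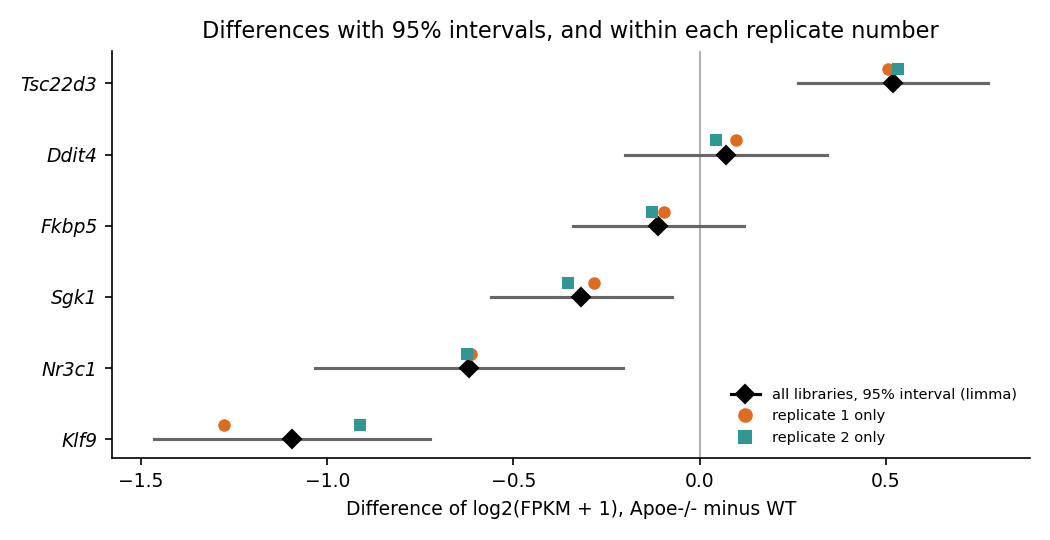
Difference of log2(FPKM + 1), Apoe-/- minus WT, for each gene: diamonds with lines give limma's estimate and 95% interval over all 4 libraries, and circles and squares give the difference between the libraries numbered 1 and those numbered 2. Tsc22d3, at 0.52, lies right of 0 and Klf9, Nr3c1 and Sgk1 lie left of it with intervals that do not reach 0, while those of Fkbp5 and Ddit4 do.

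By level, the order in WT replicate 1 was Ddit4, Tsc22d3, Fkbp5, Sgk1, Nr3c1 and Klf9. In WT replicate 2 Nr3c1 stood above Sgk1, so these neighbours did not differ beyond their spread in WT. In Apoe-/- libraries Sgk1 was above Nr3c1 in both, and Tsc22d3 and Ddit4 changed places between the libraries. In mean FPKM Ddit4, Tsc22d3 and Fkbp5 ranked above 93.3%, 91.9% and 88.3% of tested genes, Sgk1 and Nr3c1 above 80.8% and 77.4%, and Klf9 above 16.5%. In the size of the difference the order was another one: Klf9 exceeded 98.7% of tested genes, Nr3c1 94.7%, Tsc22d3 91.6%, Sgk1 77.5%, Fkbp5 35.6% and Ddit4 23.3%.

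**Figure D3:**
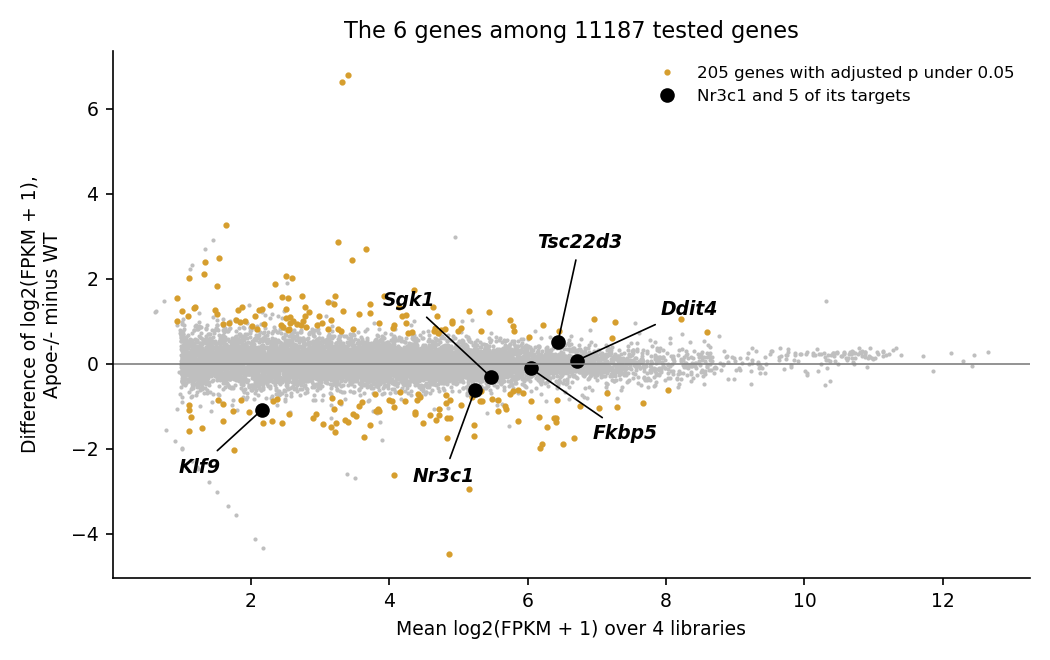
Difference of log2(FPKM + 1), Apoe-/- minus WT, against mean log2(FPKM + 1) over 4 libraries for 11187 tested genes; gold points are the 205 called genes and black points the 6 genes described. Klf9 sits at a low level among called genes, at -1.10, while the other 5 sit at higher levels and nearer to 0.

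The genes that hold and assist the receptor were lower rather than higher where they changed. The list of chaperones and coregulators also holds the mineralocorticoid receptor Nr3c2. Of its 19 tested genes 2 fell, 0 rose and 17 did not pass, against 1.83% called among all 11187 tested genes. At an unadjusted p under 0.05 (limma) 8 of the 19 were lower and 0 higher, against 925 lower and 1296 higher among all. Dnaja1, an Hsp40 co-chaperone, fell from 117 and 148 to 48.1 and 59.4 FPKM (2.46-fold, log2 difference -1.28 ± 0.16 SE, limma adjusted p = 0.0341). Fkbp4 encodes FKBP52, the relative of FKBP51 that favours hormone binding and nuclear transport. It fell from 50.8 and 47.7 to 31.3 and 31.3 FPKM (1.57-fold, log2 difference -0.64 ± 0.10, limma adjusted p = 0.0494), but did not pass in 8 of 12 alternatives, over a range of 0.00238 to 0.196. Among these the adjusted p was 0.196 with WT replicate 1 left out, 0.176 with WT replicate 2 left out and 0.0656 with Apoe-/- replicate 1 left out. Dnaja1 did not pass with all genes above 0 tested (adjusted p = 0.0816). Fkbp5 stood at 1.31 and 1.44 times the level of Fkbp4 in WT and at 1.98 and 2.01 times in Apoe-/- libraries, a ratio computed after the values were seen. Stip1, the adaptor between Hsp70 and Hsp90, was at 68.4 and 44.0 FPKM (group means, adjusted p = 0.0503) and Hsp90aa1 at 442 and 319 FPKM (adjusted p = 0.236). The difference was negative for 18 of the 19 genes, also under both other scalings of the libraries, and the list median was -0.27, against 0.00 for all tested genes. The number called was 5 without Apoe-/- replicate 2 and 1 without any of the other libraries in turn.

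The enzymes that make and remove active hormone gave few values. Of 8 genes for steroid activation and transport 4 were tested and none was called by limma (1 had an unadjusted p under 0.05). Hsd11b1, which regenerates active glucocorticoid inside cells and is named here after its values were seen, was at 55.7 and 61.9 FPKM in WT and at 53.1 and 55.8 FPKM in Apoe-/- libraries (log2 difference -0.11 ± 0.10 SE, adjusted p = 0.607). H6pd, which supplies its cofactor, was at 6.74 and 5.20 FPKM in WT and at 9.59 and 8.77 FPKM in Apoe-/- libraries (0.55 ± 0.15 SE, adjusted p = 0.136). The steroid exporter Abcb1b was at 5.27 and 6.16 FPKM (group means, adjusted p = 0.534). Hsd11b2, which inactivates the hormone, did not exceed 0.106 FPKM, and the adrenal synthesis genes Cyp11b1 and Hsd3b1 were listed at 0 throughout. Cyp11a1, another synthesis gene, did not exceed 0.200 FPKM and was not tested.

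Other genes that glucocorticoids induce did not share 1 direction. Of 26 tested genes 3 fell, 0 rose and 23 did not pass, while 10 were lower and 4 higher at an unadjusted p under 0.05. Their median was -0.13. Both Apoe-/- libraries were below both WT libraries for 12 of the 26 and above for 6, against 22.9% and 27.5% of all tested genes. Over all 11187 tested genes, 1.83% were called, and 925 were lower and 1296 higher at an unadjusted p under 0.05 (limma). Errfi1, a feedback inhibitor of EGF receptor signaling, fell from 13.5 and 14.4 to 3.997 and 4.67 FPKM (3.22-fold, log2 difference -1.49 ± 0.12 SE, limma adjusted p = 0.0142). Cdkn1a, the cell cycle inhibitor p21, fell from 15.9 and 14.6 to 5.75 and 5.27 FPKM (2.77-fold, adjusted p = 0.0148). Gadd45b, a stress sensor, fell from 298 and 262 to 154 and 138 FPKM (1.91-fold, adjusted p = 0.0290). Gadd45b did not pass without WT replicate 1 (adjusted p = 0.0656) or with all genes above 0 tested (0.0672), whereas Errfi1 and Cdkn1a passed in all 12 alternatives. Il7r, the interleukin-7 receptor subunit that glucocorticoids raise in T cells, was at 20.0 and 25.4 FPKM in WT and at 38.3 and 55.1 FPKM in Apoe-/- (1.00 ± 0.21 SE, adjusted p = 0.0909). Irs2, an adaptor of insulin signaling, was at 26.0 and 20.2 FPKM and at 14.4 and 10.8 FPKM (-0.83 ± 0.19 SE, adjusted p = 0.102). The number called in this group was 7 without Apoe-/- replicate 1 and 5 without Apoe-/- replicate 2.

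Inflammatory genes that the receptor restrains moved both ways. Of 15 such genes 8 were tested, 2 fell, 2 rose and 4 did not pass, against 1.83% called among all 11187 tested genes. At an unadjusted p under 0.05 (limma) 3 of the 8 were higher and 2 lower, against 1296 and 925 among all. The chemokine Cxcl10 fell from 130 and 129 to 45.4 and 45.9 FPKM (2.84-fold, log2 difference -1.48 ± 0.09 SE, limma adjusted p = 0.00802), and the Tfh cytokine Il4 fell 2.78-fold (-1.40 ± 0.13, adjusted p = 0.0148). The chemokine Ccl3 rose from 7.99 and 6.34 to 21.0 and 19.6 FPKM (2.83-fold, 1.39 ± 0.14, adjusted p = 0.0188). Il1b, a cytokine made mainly by myeloid cells, rose from 3.32 and 2.78 to 7.33 and 7.87 FPKM (2.49-fold, 1.09 ± 0.13, adjusted p = 0.0303). Il1b did not pass without WT replicate 2 (adjusted p = 0.0804), and neither Il1b nor Ccl3 passed with all genes above 0 tested (0.0832 and 0.0605). Ifng, the Th1 cytokine, was at 88.2 and 132 FPKM (adjusted p = 0.0693) and the chemokine Ccl4 at 8.22 and 11.5 FPKM (adjusted p = 0.296). The list median was 0.24, against 0.00 over all tested genes.

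Partners of Sgk1 and Ddit4 in mTOR and FOXO signaling showed no called gene among 21 tested (limma; 4 lower and 2 higher at an unadjusted p under 0.05), with a median of -0.16. The number called was 1 without Apoe-/- replicate 1 and 2 without Apoe-/- replicate 2. Klf2, a FOXO1 target that governs T cell trafficking, was at 168 and 137 FPKM in WT and at 268 and 231 FPKM in Apoe-/- libraries (0.71 ± 0.14 SE, adjusted p = 0.0809). Sesn2, a stress-induced inhibitor of mTORC1, was at 8.11 and 5.93 FPKM and at 4.54 and 3.61 FPKM (-0.65 ± 0.18 SE, adjusted p = 0.145).

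Relatives of the 6 genes had negative differences in all 9 that were tested, under the deposited and both other scalings. Only Fkbp4 was called, against 1.83% of all tested genes, and 4 of the 9 were lower at an unadjusted p under 0.05 (limma). The list median was -0.15, against 0.00 over all tested genes. Differences were small for Fkbp1a, Tsc22d4 and Sgk3 (-0.08, -0.06 and -0.05), so their sign carries little weight. Fkbp4 and Nr3c2 are also counted among the chaperones and coregulators, so the lists are not separate. Tsc22d1 and Tsc22d2, members of the GILZ family, were at 14.4 and 9.54 FPKM and at 17.3 and 11.8 FPKM (group means; log2 differences -0.55 and -0.51, adjusted p = 0.102 and 0.150), opposite in sign to Tsc22d3. Tsc22d4, of the same family, was at 114 and 109 FPKM (group means, adjusted p = 0.872), above the group means of Tsc22d3 in both genotypes. In Apoe-/- replicate 2, however, Tsc22d4 was at 93.8 FPKM, below Tsc22d3 at 108 FPKM. The mineralocorticoid receptor Nr3c2, which also binds glucocorticoids, was at 1.05 to 1.53 FPKM, far below Nr3c1. Sgk3 was at 2.11 to 2.58 FPKM, and Sgk2, Ddit4l and the progesterone receptor Pgr were listed at 0 in all libraries.

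**Figure D4:**
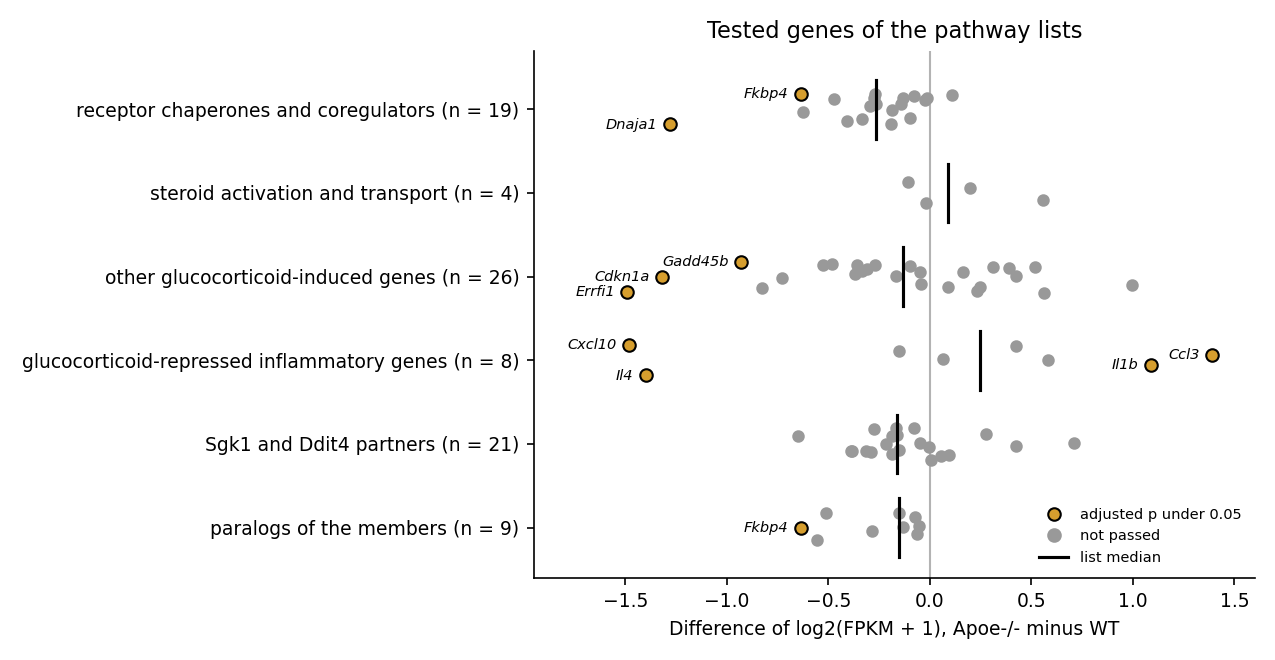
Difference of log2(FPKM + 1), Apoe-/- minus WT, for the tested genes of 6 lists around the receptor and its targets; gold points with names are called genes, grey points did not pass and vertical lines are list medians. Called genes of the chaperone and induced lists lie left of 0, and those of the repressed list lie on both sides, from -1.48 for Cxcl10 to 1.39 for Ccl3.

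Markers of other cell types differed between the same libraries. In bulk RNA, fewer cells of a type and less RNA per cell cannot be told apart. Of 9 B cell markers 3 fell (Cd22, Fcer2a and Cr2), and the summed level of the 9 was 295 and 290 FPKM in WT and 180 and 172 FPKM in Apoe-/- libraries, with none at 0. Over all 11187 tested genes, 1.83% were called. All 9 were lower at an unadjusted p under 0.05 (limma), against 925 lower among all tested genes. Both Apoe-/- libraries lay below both WT libraries for all 9, against 22.9% of all tested genes. The number called was 1 without WT replicate 2 and 6 without Apoe-/- replicate 1. Of 10 myeloid markers 3 rose (S100a8, S100a9 and Vsig4), with sums of 112 and 107 FPKM in WT and 169 and 190 FPKM in Apoe-/-, and Vsig4 was listed at 0 in WT replicate 2. At an unadjusted p under 0.05 (limma), 7 of the 10 were higher and 0 lower, against 1296 and 925 of all 11187 tested genes. Both Apoe-/- libraries lay above both WT libraries for 7 and below them for 1, against 27.5% and 22.9% of all tested genes. With all genes above 0 tested, Vsig4 did not pass (adjusted p = 0.0945) and 1 B cell marker did. Of 8 CD8 T and NK cell markers 6 were tested and none was called by limma (3 higher at an unadjusted p under 0.05), with sums of 20.7 and 20.1 FPKM and of 26.6 and 30.3 FPKM. In that list 1 gene was called without Apoe-/- replicate 1 and 1 without Apoe-/- replicate 2. Klf9 and the other genes named here can be expressed by such cells too, and the part of these cells in the differences was not tested.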

How the data were processed

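RNA of Tfh cells was profiled by RNA sequencing in 4 libraries, 2 WT and 2 Apoe-/-, grouped by their titles. The authors deposited 1 table of FPKM per gene symbol and library. Tools named in the submitters' processing notes are TopHat2 2.0.13, Cuffdiff 2.2.0 and CASAVA 1.8.2, and mm10 is the build named there. Their settings, the annotation and the strand mode are not given in the sources used. All 4 columns were used, and 2 rows with a misplaced tab were read by splitting on white space. Depth is unknown, so no counting interval is given.

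Genes whose FPKM averaged 1 or more over the libraries (11187) were tested as log2(FPKM + 1) with limma 3.58.1 in R 4.3.3 (eBayes with trend, two-sided, Benjamini-Hochberg adjustment over all tested genes, threshold 0.05). FPKM is scaled for length and library size, so no count model was used; the scale understates differences of low genes such as Klf9. An exact permutation test of 2 against 2 cannot go below p = 0.333. The procedure was tested on simulated data. Gene positions and start windows came from RefSeq, GRCm38.p6, the same assembly as mm10, and exons from GENCODE on that assembly. The members and the 14 gene lists were chosen with earlier results of these data known. Of the B cell markers, 9 are reported and 1 other is not reported here. Named were the 6 members, every called gene of a list, the 2 others of each pathway list (not of the cell marker lists) with the largest absolute difference, relatives by level, and for each member the 3 tested genes nearest to it in pattern. The 12 alternatives changed the pseudocount, filter, scaling, variance trend or block, or left out 1 library.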

Additional observations from a re-analysis of the deposited data

How the results depend on the processing

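With all 4 libraries kept and no block, Tsc22d3, Nr3c1, Sgk1, Fkbp5 and Ddit4 kept their sign and did not pass. Klf9 kept its sign (-1.38 to -0.95 over all alternatives that could test it) and stopped passing with no FPKM filter (log2 difference -1.10, adjusted p = 0.0932); a mean FPKM of 5 or more leaves it out. Thus 0 of the 6 genes were called with no FPKM filter and 0 with a mean FPKM of 5 or more. With 1 library left out, in which case the lone library is assumed to vary like the other group, 0 to 2 of the 6 genes were called. The log2 differences then ranged from -1.24 to -0.95 for Klf9, from -0.78 to -0.46 for Nr3c1, from 0.45 to 0.59 for Tsc22d3, from -0.36 to -0.27 for Sgk1, from -0.14 to -0.09 for Fkbp5 and from -0.0174 to 0.16 for Ddit4. The Ddit4 value below 0 (-0.0174) came without Apoe-/- replicate 1. Klf9 was at -0.95 without WT replicate 1 (adjusted p = 0.0774), and Nr3c1 at -0.77 without Apoe-/- replicate 2 (adjusted p = 0.0243).

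Over all genes, 106 were called higher and 99 lower. With no FPKM filter these were 35 and 41, with a mean FPKM of 5 or more 51 and 71, with one FPKM total 102 and 125 and with quantile normalization 98 and 102, so that lower calls outnumbered higher ones in these 4 settings, as they did without WT replicate 2 (54 and 67). With 1 library left out, 54 to 317 were higher and 61 to 301 lower. With 1 library left out, called genes numbered 1 to 5 of the chaperones and coregulators, 2 to 7 of the other induced genes, 0 to 2 of the Sgk1 and Ddit4 partners and 0 to 1 of the relatives. Of the chaperones and coregulators 1 was called with pseudocount 0.1, with quantile normalization, without the variance trend and with a mean FPKM of 5 or more, and 0 with no FPKM filter. Of the relatives 0 were called in those 5 settings. Of the repressed inflammatory genes 2 were called with no FPKM filter. The cause was not tested in any of these.

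The labels do not tie equal replicate numbers to a shared animal or day. Deviations of equal-numbered libraries from their group means correlated at r = 0.21 across tested genes, which are not independent replicates. With the replicate block, 1908 genes were called higher and 1776 lower (32.9% of tested genes). Under the block 4 of the 6 genes passed: Klf9, Nr3c1 (log2 difference -0.62, adjusted p = 0.00209), Sgk1 (-0.32, adjusted p = 0.00927) and Tsc22d3 (0.52, adjusted p = 0.00198). Under the block 12 chaperones and coregulators, 17 other induced genes and 6 repressed inflammatory genes were called. So were 11 partners, 4 relatives, 1 gene of steroid activation and transport, 5 clock genes and 11 immediate early and stress genes. Of the cell markers, 9 B cell, 7 myeloid, 3 CD8 T and NK cell and 4 T and Tfh markers were called. A gene that did not pass is not shown to be equal.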

Other observations

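Other genes that answer to hormone rhythm or to cell handling were read beside the 6 genes. These lists are not separate from earlier ones. The clock gene Per1 is also counted among the other induced genes, and the stress gene Hspa8 among the chaperones and coregulators. Of 12 tested circadian clock genes none was called by limma (3 lower at an unadjusted p under 0.05), with a median difference of -0.12. Without Apoe-/- replicate 1, 1 of them was called. Per1, a clock gene that glucocorticoids also induce directly, was at 101 and 85.5 FPKM in WT and at 62.0 and 50.1 FPKM in Apoe-/- libraries (log2 difference -0.73 ± 0.15 SE, adjusted p = 0.0858). Dbp, a clock output gene, was at 4.30 and 5.93 FPKM (group means, adjusted p = 0.367). Of 12 immediate early and stress genes 1 was called, and the differences went both ways, 7 negative and 5 positive. At an unadjusted p under 0.05 (limma), 5 of the 12 were lower and 2 higher, against 925 and 1296 of all 11187 tested genes. Nr4a1, a nuclear receptor that antigen receptor signals induce, fell from 243 and 200 to 122 and 96.8 FPKM (limma adjusted p = 0.0496) and did not pass in 5 of 12 alternatives, among them without WT replicate 1 (adjusted p = 0.0896; range 0.000545 to 0.102). In that list 2 genes were called without Apoe-/- replicate 2 and 0 without WT replicate 1. The heat shock gene Hspa1a was at 237 and 166 FPKM (adjusted p = 0.106) and the stress factor Atf3 at 20.7 and 15.0 FPKM (adjusted p = 0.108). Fos and Jun, named here after their values were seen, were higher in Apoe-/- libraries. Fos was at 707 and 915 FPKM and Jun at 306 and 373 FPKM (group means, limma adjusted p = 0.101 and 0.190).

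The tested genes nearest to each member over the 4 centred log2 values were also listed, as a description over 4 libraries only. They were Top1, C330027C09Rik and Hnrnpc for Nr3c1, Rcan3, Rwdd3 and Ly6c1 for Tsc22d3, and Pptc7, Coq4 and Zc3h13 for Sgk1. For Fkbp5 they were H2-Ob, Ccdc171 and Rbmxl1, and for Ddit4 Lamtor1, Zdhhc16 and Mum1, all these at most 0.0366 from their member in Euclidean log2 distance. Klf9 had no such near neighbour: Zfand2a, Lmna and Fgf18 lay 0.15, 0.18 and 0.18 away.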
